A study of Mus musculus with 4 samples.

Results

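A set of 37 genes, of the 24411 genes listed, was silent in mouse morulae that received control siRNA and expressed in morulae that received siRNA against Pwp1. Silent meant under 0.5 CPM in both control libraries, and expressed meant 1 CPM or more in both libraries of the other group. CPM is the expected count of a gene scaled to a library total of 1000000. The members were chosen by these CPM values in all 4 libraries. Genes whose symbols begin with Zscan4, Usp17l, Tcstv, Tdpoz, Obox, Olfr, Vmn, Pramel or Pramef were left out of the set by its definition. The 37 members are 0.152% of the genes listed, and the same limits with the groups exchanged gave a mirror-image set of 8 genes, or 0.0328%. These counts came from the values that chose the genes, so they describe the 4 libraries and no test was made on them.

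All embryos were of the ICR strain, an outbred laboratory mouse stock, and were made by in vitro fertilization. They were electroporated at the 1-cell stage, 3 hours after insemination (hpi), with control siRNA (siControl, 2 libraries) or with siRNA against Pwp1 (siPwp1, 2 libraries). Culture in KSOM medium with bovine serum albumin went on to the morula stage at 72 hpi, and each library was made from 10 pooled morulae with a SMART-Seq kit. The labels do not say whether the replicates were separate cultures, so the spread between 2 libraries of a group may be technical. The comparison asks which transcripts differ in the morula when Pwp1 is targeted.

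The product of Pwp1 carries WD repeats and takes part in transcription of ribosomal RNA genes and in chromatin. The mouse morula is made of cells that have begun to differ as future inner cell mass and trophectoderm, and most genes of differentiated tissues are not transcribed there. A gene can be silent because its promoter is closed or unbound, and genes that exist in many near-identical copies are often silenced together. In RNA pooled from whole embryos, fewer cells that transcribe a gene and less RNA per cell cannot be told apart.

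Library totals ran from 28981358 to 48765229 counts, and 15149 to 15976 genes had a count above 0. Pwp1 stood at 214.2 and 356.5 CPM in siControl, then 38.2 and 36.9 CPM in siPwp1, which was 7.6-fold lower in the means. The limit of 0.5 CPM equals 14.5 counts in the smallest library and 24.4 in the largest, so a silent gene could still hold up to 22 counts. Of 8 inner cell mass and epiblast markers, 7 reached 1 CPM in both siPwp1 libraries, as did 6 of 8 trophectoderm markers. In both siControl libraries 7 of each list did. Most of these markers of the labelled embryo stage were thus present in both groups. The trophectoderm markers summed to 680.9 and 182.2 CPM in siControl, then 459.7 and 203.5 CPM in siPwp1. Across all 13585 genes that passed the filter on low counts, edgeR's quasi-likelihood test called 0 genes higher (0% of those tested) and 0 lower in siPwp1, with 250 higher and 112 lower at an unadjusted p under 0.05. Pwp1 itself was not among the genes called lower, although its mean was 7.6-fold lower. With 2 libraries per group, the 0 therefore does not mean that no gene changed. The count of 0 also depended on the libraries: edgeR called genes higher whichever 1 library was left out, in fits that left 1 library in a group. DESeq2 called 42 higher, or 0.309%, and 2 lower. All 37 members passed that filter, and edgeR called 0 and DESeq2 11 of them, a count from which nothing is read since the same contrast chose them.

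The members were low even where they were expressed. Their median level over the siPwp1 libraries was 1.93 CPM, against 0.162 CPM in siControl, and 22 of the 37 had a siPwp1 mean under 2 CPM. Another 12 lay between 2 and 5 CPM and 3 reached 5 CPM or more, namely Gm13871, Gm4567 and Gm428. Per length, the median member stood at 0.955 TPM in siPwp1, with a range of 0.225 to 17.6 TPM, against 7.96 TPM for the 10520 genes at 1 CPM or more in both siPwp1 libraries. Summed, the members took 6.58 and 7.61 CPM with control siRNA, and 97.9 and 125.6 CPM in siPwp1. The top 3 genes made up 24.1% of that sum in siPwp1 replicate 1 and 46.1% in replicate 2.

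**Figure D1:**
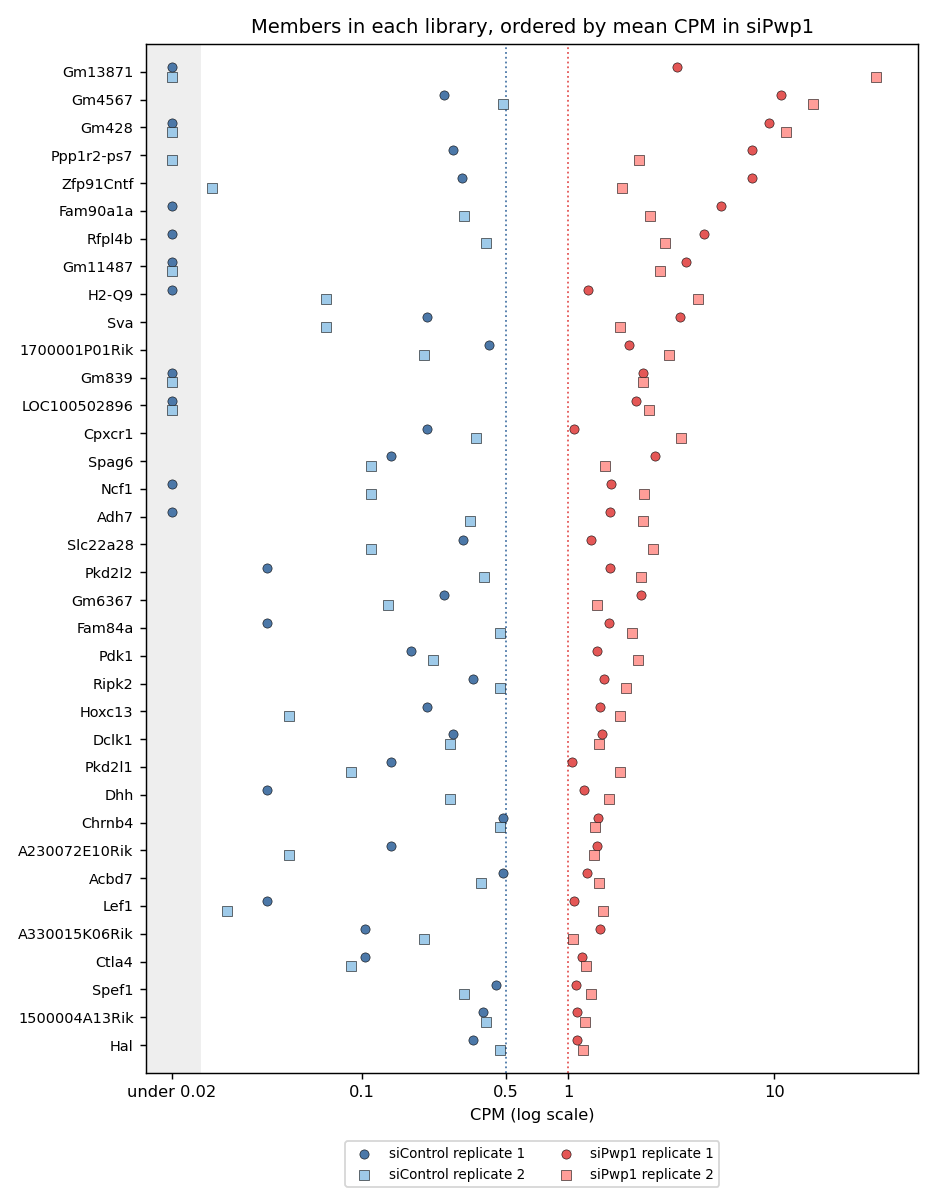
Level of 36 of the 37 members in each library, in CPM on a log scale; each point is 1 library, circles are replicate 1 and squares replicate 2. Values under 0.02 CPM, zeros included, are drawn in the grey band, and dotted lines mark the limits of 0.5 and 1 CPM, so the gap between the colours is set by the definition; most members sit just to the right of 1 CPM, and Gm13871, Gm4567 and Gm428 lie farthest right.

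The depth of silence varied. Of the 37 members, 16 lay under 0.25 CPM in both siControl libraries, and 4 had 0 counts in both (Gm428, Gm11487, Gm839 and LOC100502896). A count of 0 allows up to 3 counts, which is 0.1035 CPM in siControl replicate 1 and 0.0667 CPM in replicate 2. In siPwp1, 23 members were within 1.5-fold between the replicates and 6 differed over 2-fold. The higher library was replicate 2 for 25 members and replicate 1 for the other 12.

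The members were a small share of the genes that could have met the definition. Among the 10276 genes silent in both siControl libraries, 115 reached 1 CPM only in siPwp1 replicate 1, 190 only in siPwp1 replicate 2 and 37 in both. Among the 9661 genes silent in both siPwp1 libraries, 52 reached it only in siControl replicate 1, 32 only in siControl replicate 2 and 8 in both. Libraries of 1 group also differed in this way: 261 to 361 genes were under 0.5 CPM in 1 library and at 1 CPM or more in the other of the same group. The definition applied without 1 of the 4 libraries, whichever was left out, is looser and gave 121 to 227 genes, and the mirror image gave 29 to 86. With TPM in place of CPM and the same limits, 31 genes qualified and only 8 of them were members, so most of the set is tied to the unit.

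**Figure D2:**
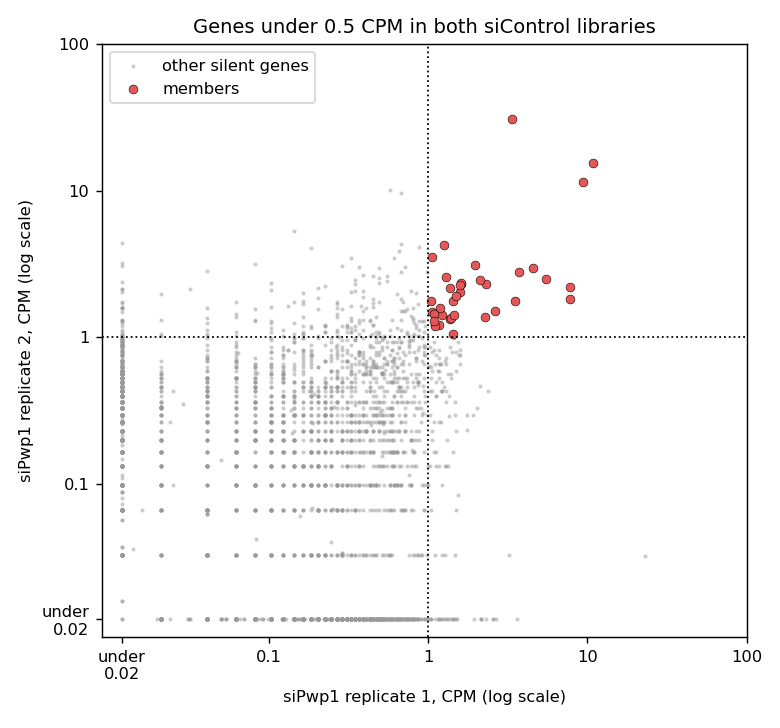
Genes under 0.5 CPM in both siControl libraries, by their level in siPwp1 replicate 1 (x) and replicate 2 (y), in CPM on log scales, with values under 0.02 CPM drawn at the edge. Dotted lines mark 1 CPM; the 37 members, by definition, fill the upper right corner, while 115 genes lie to the right of the line in replicate 1 only and 190 above it in replicate 2 only.

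The limits fell in a dense range of values. Just inside 1 CPM lay Pkd2l1 (1.046 and 1.779 CPM in siPwp1), Lef1 (1.07 and 1.48), Cpxcr1 (1.07 and 3.525) and Spef1 (1.09 and 1.285). Just outside it lay Herc6, at 1.46 and 0.988 CPM in siPwp1, Pkd1, at 0.983 and 2.785, and Sh3gl2, at 0.964 and 1.19. Closest inside 0.5 CPM lay Gm4567 (0.2515 and 0.4855 CPM in siControl), although it reached 10.8 and 15.4 CPM in siPwp1. Next to it lay Chrnb4 (0.483 and 0.467 CPM in siControl), Acbd7 (0.483 and 0.378), Hal (0.345 and 0.467) and Fam84a (0.0345 and 0.467). Just outside it lay Ephb1, at 0.138 and 0.511 CPM in siControl, and Cd52, at 0.518 and 0.422. Ephb1 reached 1.58 and 2.24 CPM in siPwp1 and Cd52 2.87 and 1.58, so genes with the same pattern stood on both sides of the limits.

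The largest group within the set lay on chromosome 4. Gm13871, Gm428, Gm11487 and LOC100502896 are near-identical protein-coding genes of 6 exons each, and they were the only members with another member within 1 Mb. They belong to 10 listed copies, 96.4% to 100% identical in transcript sequence, that lie between positions 73401032 and 73905921 (504.89 kb, GRCm38.p6). Of the 12 listed genes in that stretch, the other 2 are Rasef and Gm11240. RefSeq names the gene listed as LOC100502896 Gm11238, and symbols are given here as the files list them.

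RefSeq holds promoter windows for 3 of the copies that are members. All 3 met the definition, but the level of each is uncertain because reads of near-identical copies are split between them. The windows are shown because they are nearly the same sequence. Each runs from 250 bases before to 50 after a transcript start, from RefSeq on GRCm38.p6, 5′ to 3′ on the gene's strand. That start is not always the edge of RefSeq's gene span: it lies 2363 bases inside the span of Gm428, 2332 inside that of Gm11487 and at the edge in Gm13871. The nearest GENCODE M21 transcript start was 2, 0 and 32 bases away in the same order. Capitals mark TATAAA, the core of a TATA box, and GGATTA, a core bound by homeodomains of the bicoid type, on either strand. Gm428 lies at chr4:73683264-73683563 (plus strand), Gm11487 at chr4:73405023-73405322 (minus strand) and Gm13871 at chr4:73905872-73906171 (minus strand).
Gm428: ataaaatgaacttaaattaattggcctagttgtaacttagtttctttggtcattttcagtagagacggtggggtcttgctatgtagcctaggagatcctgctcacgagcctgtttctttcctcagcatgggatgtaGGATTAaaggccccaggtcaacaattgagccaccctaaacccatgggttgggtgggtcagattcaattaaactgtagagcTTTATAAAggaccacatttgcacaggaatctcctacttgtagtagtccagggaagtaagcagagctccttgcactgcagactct
Gm11487: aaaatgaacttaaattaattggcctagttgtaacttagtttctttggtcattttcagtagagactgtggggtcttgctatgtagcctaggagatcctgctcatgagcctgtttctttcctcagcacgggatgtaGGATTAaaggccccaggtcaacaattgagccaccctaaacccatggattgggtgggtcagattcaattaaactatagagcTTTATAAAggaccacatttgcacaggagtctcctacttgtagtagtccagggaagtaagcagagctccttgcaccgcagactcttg
Gm13871: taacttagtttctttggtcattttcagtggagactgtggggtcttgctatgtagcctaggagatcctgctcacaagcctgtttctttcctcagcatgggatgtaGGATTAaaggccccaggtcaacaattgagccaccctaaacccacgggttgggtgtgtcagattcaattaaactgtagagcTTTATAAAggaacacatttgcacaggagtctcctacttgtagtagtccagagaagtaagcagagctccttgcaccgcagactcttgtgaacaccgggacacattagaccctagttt

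The windows of Gm428 and Gm11487 were 97.7% identical over 298 aligned bases. That of Gm13871 was 96.6% identical to Gm428 over 268 bases and 96.3% to Gm11487 over 270 bases. TATAAA began 32 bases upstream of the transcript start of the window in Gm428 and 34 in Gm11487, and on the other strand it overlapped itself by most of its length. In Gm13871 it lay 64 bases upstream, since RefSeq places the start elsewhere in the same sequence. GGATTA lay 114, 116 and 146 bases upstream in the same order.

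Gm428 had 0 counts in both siControl libraries and 9.433 and 11.45 CPM in siPwp1 (10.4 ± 1.43, SD, n = 2). Against the limit that 3 counts per library set, this was at least 122.7-fold higher. The siPwp1 libraries were close to each other, and the groups could not overlap by the definition. Gm11487 also had 0 counts in siControl and stood at 3.75 and 2.79 CPM in siPwp1, at least 38.4-fold higher. LOC100502896 had 0 counts in siControl and stood at 2.13 and 2.47 CPM, at least 27.0-fold higher. These 3 genes differed between the siPwp1 libraries by 1.342-fold or less.

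Gm13871 had 0 and 0.002 CPM in siControl, against 3.38 and 31.02 CPM in siPwp1. The 9.18-fold gap between its siPwp1 libraries was the widest of all 37 members, and its mean of 17.2 CPM (SD 19.55, n = 2) rested mostly on replicate 2. Expected counts of near-identical copies are split by RSEM between places where a read fits equally well, so the level of a single copy is uncertain. The 6 copies that are not members were uneven between the siPwp1 libraries: Gm11236, LOC100862015 and LOC101055863 each stood at 2.14 CPM in siPwp1 replicate 1 and at 0 in replicate 2. Gm11758 stood at 0.674 and 9.59 CPM in siPwp1, and Gm11757 at 3.595 and 0. Gm11237 stood at 0 and 4.41 CPM.

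The sum over the 10 copies does not depend on how reads were divided among them. It was 3 and 6 counts in siControl, or 0.1035 and 0.1334 CPM, and 1433 and 1874 counts in siPwp1, or 29.4 and 61.7 CPM. In the sum, both siPwp1 libraries were far above both siControl libraries. The siPwp1 mean of the sum was 45.6 CPM (SD 22.9, n = 2), so these libraries were less close than for Gm428 alone. Rasef, a gene of the Rab family that lies between the copies, stood at 0.069 and 0.0667 CPM in siControl, then 0.595 and 0.362 CPM in siPwp1. Gm11240 had 0.0889 CPM or less in every library. The nearest listed genes outside the stretch, Aldoart1 and 2310002L09Rik, were at 0 CPM in every library. Farther out, C630043F03Rik stood at 0.725 and 1.89 CPM in siControl, then 0.369 and 0 CPM in siPwp1. Frmd3 stood at 0 and 0.689 CPM, then 0.451 and 0.0659 CPM. Kdm4c, a histone demethylase gene beyond Frmd3, stood at 16.2 and 33.7 CPM with control siRNA, and 22.6 and 44.1 CPM in siPwp1. The groups overlapped for Frmd3 and Kdm4c.

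**Figure D3:**
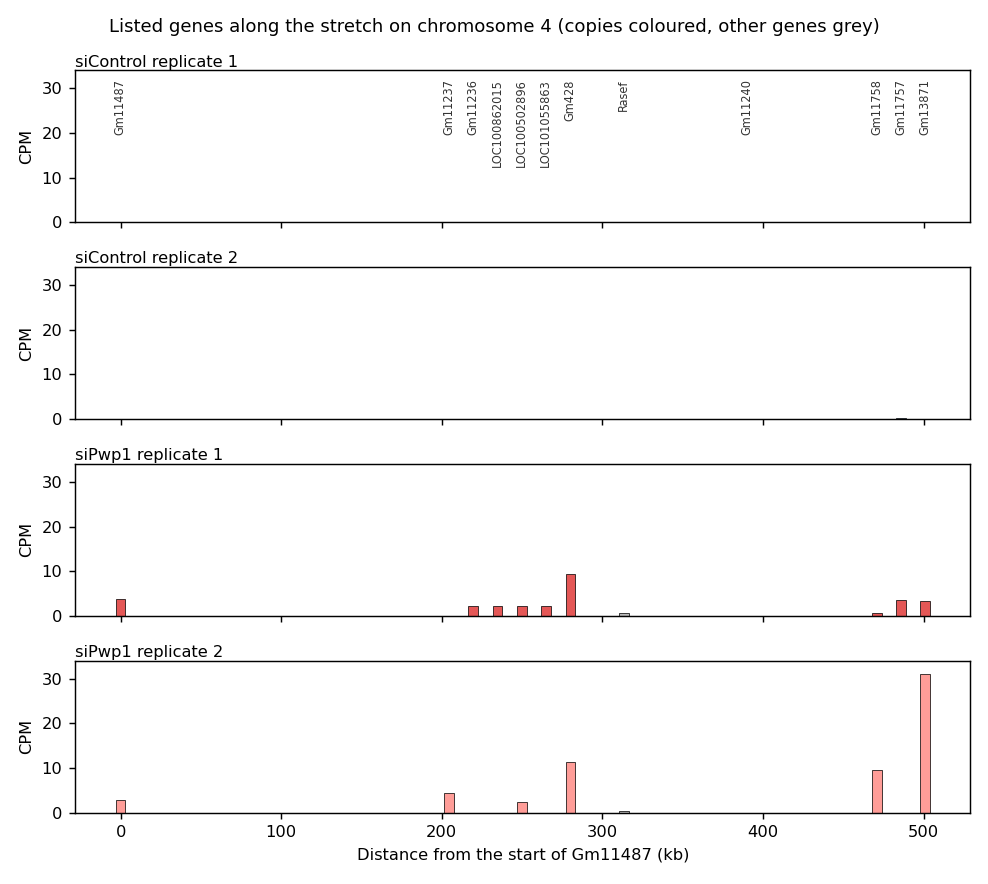
Levels (CPM, linear scale) of the 12 listed genes along the chromosome 4 stretch, 1 panel per library, placed by distance in kb from the start of Gm11487; coloured bars are the 10 copies and grey bars Rasef and Gm11240. The copies are at or near 0 in both siControl panels and present in both siPwp1 panels, with different copies holding the counts in each siPwp1 library.

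Gm4567 is a second multi-copy member, on chromosome 7 from 22713598 to 22719710 (minus strand), with 3 exons. It stood at 0.2515 and 0.4855 CPM in siControl, against 10.8 and 15.4 CPM in siPwp1, or 35.55-fold higher in the means. The siPwp1 libraries were within 1.424-fold of each other. Its 3 near-identical copies are Gm10662, Gm5891 and Gm6902, and the sum over all 4 was 3.59 and 7.58 CPM in siControl, then 41.1 and 59.95 CPM in siPwp1. The sum was higher in both siPwp1 libraries but not silent in siControl, so the copy group does not meet the definition while the single gene does. The window of Gm4567 is shown with those of Gm839 and Fam90a1a for the motifs they hold. Capitals mark GGATTA or TCAAGGTCA, a site read by NR5A and ESRR nuclear receptors, on either strand. In Fam90a1a the match lies downstream of the transcript start, at base 11, whereas those in Gm4567 and Gm839 lie upstream. Gm4567 lies at chr7:22719661-22719960 (minus strand), Gm839 at chr6:89216130-89216429 (minus strand) and Fam90a1a at chr8:21958464-21958763 (plus strand), from RefSeq on GRCm38.p6.
Gm4567: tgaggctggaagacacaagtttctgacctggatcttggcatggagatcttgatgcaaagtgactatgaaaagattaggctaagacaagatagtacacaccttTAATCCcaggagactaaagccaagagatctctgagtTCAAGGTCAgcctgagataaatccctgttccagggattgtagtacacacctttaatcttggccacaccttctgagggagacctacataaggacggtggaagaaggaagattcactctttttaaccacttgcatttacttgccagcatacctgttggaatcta
Gm839: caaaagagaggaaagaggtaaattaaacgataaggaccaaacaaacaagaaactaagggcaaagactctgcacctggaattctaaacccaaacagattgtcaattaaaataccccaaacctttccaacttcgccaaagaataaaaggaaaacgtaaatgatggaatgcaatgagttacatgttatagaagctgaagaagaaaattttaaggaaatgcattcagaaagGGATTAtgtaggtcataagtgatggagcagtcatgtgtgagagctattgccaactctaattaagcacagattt
Fam90a1a: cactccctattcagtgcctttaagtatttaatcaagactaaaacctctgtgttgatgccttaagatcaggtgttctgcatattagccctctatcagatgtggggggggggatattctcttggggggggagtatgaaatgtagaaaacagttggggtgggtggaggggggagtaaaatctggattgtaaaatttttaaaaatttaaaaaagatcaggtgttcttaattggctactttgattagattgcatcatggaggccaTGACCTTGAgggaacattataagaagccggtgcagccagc

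Gm839 is a long noncoding RNA gene on chromosome 6 and no listed gene was a near-identical copy of it. It had 0 counts in both siControl libraries and 2.30 and 2.31 CPM in siPwp1, at least 27.04-fold higher than the limit of 3 counts per library. Its siPwp1 libraries were the closest of any member, 1.004-fold apart. Fam90a1a stood at 0 and 0.311 CPM with control siRNA, and 5.52 and 2.50 CPM in siPwp1, or 25.8-fold higher in the means. In siControl its counts came from replicate 2 alone. Rfpl4b, a relative of the oocyte gene Rfpl4 with RING and B30.2 domains, stood at 0 and 0.400 CPM in siControl, against 4.57 and 2.965 CPM in siPwp1, or 18.8-fold higher. Rfpl4 itself, examined after these values were seen, stood at 0.932 and 0.734 CPM in siControl, then 3.896 and 3.29 CPM in siPwp1. Rfpl4 was thus higher in both siPwp1 libraries, which the definition requires of Rfpl4b.

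Gm6367 is a transcribed pseudogene on chromosome 5 with 3 near-identical listed copies (AA792892, C87414 and Gm3259). It stood at 0.251 and 0.133 CPM with control siRNA, and 2.26 and 1.38 CPM in siPwp1, or 9.47-fold higher in the means. The sum over the 4 copies was 2.415 and 6.85 CPM in siControl, against 11.7 and 19.8 CPM in siPwp1. The copy group was thus expressed in siControl as well, at a lower level than in siPwp1.

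For H2-Q9 and Zfp91Cntf, a close copy or a nested gene was lower in siPwp1 while the member was higher. H2-Q9, a nonclassical MHC class I gene, stood at 0 and 0.0667 CPM in siControl, then 1.25 and 4.27 CPM in siPwp1. Its near-identical neighbour H2-Q7 stood at 5.62 and 5.37 CPM with control siRNA, and 2.05 and 1.26 CPM in siPwp1, lower in both siPwp1 libraries. Summed with H2-Q7 and H2-Q6, the level was 6.14 and 6.11 CPM in siControl, against 3.30 and 5.63 CPM in siPwp1. The sum was not higher in siPwp1, so the pattern of H2-Q9 was not kept over its copies.

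Zfp91Cntf is a noncoding readthrough transcript on chromosome 19 that runs from the zinc finger gene Zfp91 into Cntf, the ciliary neurotrophic factor gene. It stood at 0.306 and 0.0187 CPM in siControl, then 7.80 and 1.83 CPM in siPwp1, a 4.27-fold gap between the siPwp1 libraries. Cntf, which shares 847 exon bases with it, belonged to the mirror-image set, with 1.54 and 1.31 CPM with control siRNA, and 0 and 0.117 CPM in siPwp1. The sum of Zfp91, Zfp91Cntf and Cntf was 70.5 and 51.2 CPM in siControl, against 44.0 and 37.0 CPM in siPwp1. One locus therefore held a gene of each set, and its summed level was lower in both siPwp1 libraries.

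**Figure D4:**
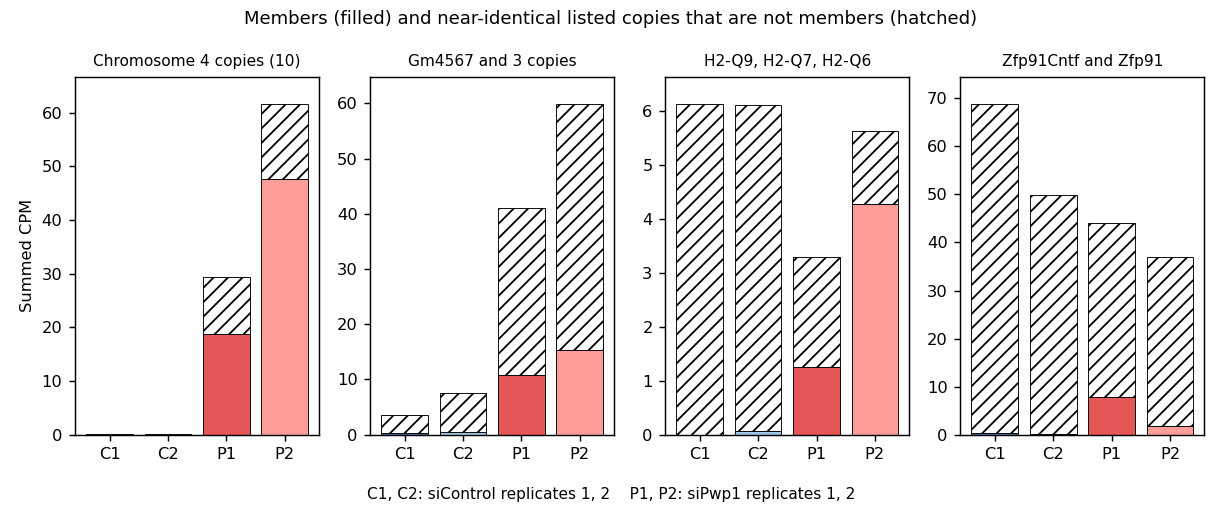
Summed level (CPM, linear scale from 0, different for each panel) of 4 groups of near-identical or nested genes in each library; filled parts are members and hatched parts the copies that are not. The chromosome 4 and Gm4567 sums are higher in both siPwp1 libraries, whereas the sums with H2-Q9 and with Zfp91Cntf are not.

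Over the whole set, 9 of 37 members (24.3%) had a near-identical listed copy, meaning 95% identity or more over at least 50% of the transcript. The share was 7.88% of all genes listed and 10.5% of the genes silent in both siControl libraries. Of the 9, 4 are the chromosome 4 members, which are copies of each other and not independent. Summing copies could change only the 9 members with a copy. Of these, 4 no longer met the limits (Gm4567, Gm6367, H2-Q9 and Zfp91Cntf), which left 33 of the 37. The chromosome 4 members share the same sum and met them. Slc22a28 also met them, but its copy Slc22a30 had 0 counts in every library. Of the members, 10 (27.03%) overlapped another gene in their exons or matched the same gene model as another listed gene. The share counted in the same way was 19.49% of all genes listed. H2-Q9 was counted only through the gene model it shares with H2-Q7. When the 10 were left out, 27 members remained. Among genes silent in both siControl libraries the share was 17.39%. For the set it was 13.33% with TPM, 17.78% without siPwp1 replicate 1 and 16.56% without siPwp1 replicate 2, below that of all genes. It was above that of all genes without siControl replicate 1 (26.45%) or 2 (20.77%) and at a silent limit of 0.25 CPM (25%). At an expressed limit of 2 CPM it was 0%.

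The remaining members are given by role. Ppp1r2-ps7, an X-linked pseudogene of a protein phosphatase inhibitor, stood at 0.276 and 0 CPM in siControl, then 7.77 and 2.21 CPM in siPwp1, or 36.15-fold higher in the means. Its replicate 1 was the higher siPwp1 library by 3.521-fold. Sva, which encodes seminal vesicle antigen, a secreted protein, stood at 0.207 and 0.0667 CPM with control siRNA, and 3.51 and 1.78 CPM in siPwp1. Cpxcr1, an X-linked gene, stood at 0.207 and 0.356 CPM in siControl, against 1.07 and 3.525 CPM in siPwp1. 1700001P01Rik stood at 0.414 and 0.200 CPM in siControl, then 1.97 and 3.10 CPM in siPwp1. For all of these the groups did not overlap, as the definition requires.

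Genes of cilia, flagella and microtubules were members as well. Spag6, a component of the central apparatus of the axoneme that RefSeq names Spag6l, stood at 0.138 and 0.111 CPM with control siRNA, and 2.645 and 1.515 CPM in siPwp1, or 16.7-fold higher. Spef1, a microtubule-binding protein of flagella and cilia, stood at 0.449 and 0.311 CPM in siControl, against 1.09 and 1.285 CPM in siPwp1, or 3.12-fold higher. Spef1 overlaps exons of Cdc25b on the opposite strand and of Cenpb on the same strand, by 92 and 20 bases. Dclk1, a microtubule-binding kinase, had almost equal replicates, with 0.276 and 0.267 CPM with control siRNA, and 1.46 and 1.42 CPM in siPwp1. The 8 sperm and late spermatid markers summed to 0 to 1.55 CPM in siControl and 0.231 to 1.07 CPM in siPwp1, none reached 1 CPM in both siPwp1 libraries, and Akap4 and Smcp were at 0 in every library. The longer list of 48 sperm and spermatid genes summed to 47.2 and 33.5 CPM in siControl, then 71.98 and 58.2 CPM in siPwp1, with a median log2 difference of 0, and its part in the levels of Spag6 and Spef1 was not tested.

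Several members encode channels, receptors, transporters and enzymes of other tissues. Pkd2l2, of the polycystin channel family, stood at 0.0345 and 0.393 CPM in siControl, against 1.60 and 2.26 CPM in siPwp1, and its exons overlap Fam13b on the opposite strand by 631 bases. Pkd2l1, another polycystin channel, stood at 0.138 and 0.0889 CPM in siControl, then 1.046 and 1.779 CPM in siPwp1, or 12.45-fold higher. Chrnb4, a subunit of nicotinic acetylcholine receptors, stood at 0.483 and 0.467 CPM with control siRNA, and 1.39 and 1.35 CPM in siPwp1, only 2.89-fold higher. The difference between Pkd2l1 and Chrnb4 lay in the depth of silence in siControl, not in the siPwp1 level. The 8 neuron markers summed to 1.45 to 2.31 CPM in siControl and 2.85 to 3.69 CPM in siPwp1, with 1 of 8 at 1 CPM in both siPwp1 libraries and Stmn2 and Gap43 at 0. The longer list of 97 neurotransmitter receptor, channel and synapse genes summed to 50.2 and 57.3 CPM with control siRNA, and 92.5 and 185.7 CPM in siPwp1, with a median log2 difference of 0.15. The part of neuronal genes as a whole in the levels of Chrnb4 and Dclk1 was not tested.

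Slc22a28, of the organic anion transporter family, stood at 0.3105 and 0.111 CPM in siControl, against 1.29 and 2.57 CPM in siPwp1. Its near-identical copy Slc22a30 (98.75% identity) had 0 counts in every library. Adh7, an alcohol dehydrogenase active on retinol, stood at 0 and 0.333 CPM in siControl, then 1.60 and 2.31 CPM in siPwp1. Hal, histidine ammonia-lyase of liver and skin, stood at 0.345 and 0.467 CPM with control siRNA, and 1.11 and 1.19 CPM in siPwp1. Hal had the lowest siPwp1 mean of the 37, at 1.15 CPM, and the smallest ratio of means, 2.825-fold. Acbd7, an acyl-CoA-binding protein, stood at 0.483 and 0.378 CPM in siControl, against 1.23 and 1.42 CPM in siPwp1. Being short, it stood at 1.72 and 1.49 TPM in siControl and 4.41 and 5.58 TPM in siPwp1. In TPM it was thus not silent in siControl. Fam84a, which RefSeq names Lratd1, stood at 0.0345 and 0.467 CPM in siControl, then 1.58 and 2.04 CPM in siPwp1.

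Signalling and immune genes formed the last group. Lef1, a transcription factor of the Wnt pathway, had 1 count in each siControl library (0.0345 and 0.0222 CPM) and 52 and 45 counts in siPwp1 (1.07 and 1.48 CPM). Both siControl libraries were near 0 and both siPwp1 libraries just above the limit. Its relatives Tcf7, Tcf7l1 and Tcf7l2, examined after the values were seen, had overlapping groups, Tcf7l2 at 7.80 and 14.5 CPM with control siRNA, and 10.2 and 11.6 CPM in siPwp1. Ncf1, a cytosolic subunit of the phagocyte NADPH oxidase, stood at 0 and 0.111 CPM in siControl, against 1.62 and 2.34 CPM in siPwp1. Among other subunits of the same oxidase, examined after the values were seen, Cyba stood at 11.8 and 14.85 CPM with control siRNA, and 17.7 and 20.1 CPM in siPwp1, so it was expressed in both groups and higher in both siPwp1 libraries. Cybb had overlapping groups, and Ncf4 had counts in siControl replicate 1 alone. Ncf1 overlaps Gtf2ird2 on the opposite strand by 408 exon bases, and Gtf2ird2 stood at 0.3105 and 0.978 CPM in siControl, against 2.52 and 0.494 CPM in siPwp1.

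The next 5 genes were added with their values in view, to account for the members with known functions. Ctla4, an inhibitory receptor of T cells, stood at 0.1035 and 0.0889 CPM in siControl, then 1.17 and 1.22 CPM in siPwp1. The 13 blood and immune markers summed to 58.66 and 88.45 CPM with control siRNA, and 111.8 and 109.4 CPM in siPwp1, with 4 of 13 at 1 CPM in both siPwp1 libraries and Hbb-bs, Hbb-bt, Tyrobp and Fcer1g at 0. The longer list of 41 blood and immune cell genes summed to 81.6 and 139.8 CPM in siControl, then 145.4 and 161.3 CPM in siPwp1. The part of blood cells in the levels of Ctla4 and Ncf1 was not tested. Dhh, a hedgehog ligand, stood at 0.0345 and 0.267 CPM in siControl, against 1.19 and 1.58 CPM in siPwp1, and shares 546 exon bases with Rhebl1 on the same strand. Rhebl1 stood between 52.3 and 67.3 CPM in all libraries, and the part of shared reads in the level of Dhh was not tested. Hoxc13, a homeobox gene known from hair and nail, stood at 0.207 and 0.0445 CPM in siControl, then 1.435 and 1.78 CPM in siPwp1. Ripk2, a kinase of NOD receptor signalling, stood at 0.345 and 0.467 CPM and then 1.497 and 1.91 CPM. Pdk1, which inhibits pyruvate dehydrogenase, stood at 0.1725 and 0.222 CPM and then 1.37 and 2.17 CPM. The 3 members A230072E10Rik, A330015K06Rik and 1500004A13Rik, are noncoding and overlap other genes in their exons.

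What the members share beyond the definition was compared with other sets as a description. The set held 30 protein-coding genes, 5 long noncoding RNAs and 2 transcribed pseudogenes, and 11 of the 37 were known only by an identifier. The median gene span was 16950 bases, between 10150 for the genes silent in both siControl libraries and 22410 for those at 1 CPM in both siPwp1 libraries. The median spliced length was 2197 bases, against 1617 and 2663 in the same order, and the median exon number 6, against 4 and 9. The shortest spans were those of Rfpl4b (1239 bases), Ppp1r2-ps7 (1948) and Gm839 (3983). The longest were those of Dclk1 (296766 bases), A330015K06Rik (169627) and Lef1 (114061). The median span depends on the limits and libraries: it was 26330 bases without siPwp1 replicate 2, 7246 bases with a silent limit of 0.25 CPM and 5590 bases for the 9 genes at 2 CPM or more, which included none with an exon overlap.

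Members were spread over 17 chromosomes, and 36 had a place in the RefSeq table used. Chromosomes 3 and 4 held 5 members each (13.9% of those placed), against 4.7% and 5.96% of the genes listed. The 5 on chromosome 4 were the 4 copies and Ripk2.

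The promoters of the members were described by their CpG content. RefSeq held 32 windows for 27 of the 37 members, and 4 windows (12.5%) were CpG-rich, meaning an observed/expected CpG ratio of 0.6 or more and a GC content of 50% or more. The share was 21.2% among genes silent in both siControl libraries, 68.3% among genes at 1 CPM in both siPwp1 libraries and 45.4% over all genes listed. The CpG-rich windows belonged to Fam84a, Pdk1, Zfp91Cntf and 1 of 4 windows of Lef1. The place of the members against the silent genes depended on the definition and no test was made. With TPM in place of CPM the share of CpG-rich windows was 33.33%, without siControl replicate 1 or 2 it was 37.7% and 39.77%, and without siPwp1 replicate 1 or 2 it was 28.32% and 29.08%, all above the silent genes. At an expressed limit of 2 CPM it was 0%. Each of these shares was below that of all genes listed. Several windows come from near-identical copies or from 1 gene and are not independent.

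**Figure D5:**
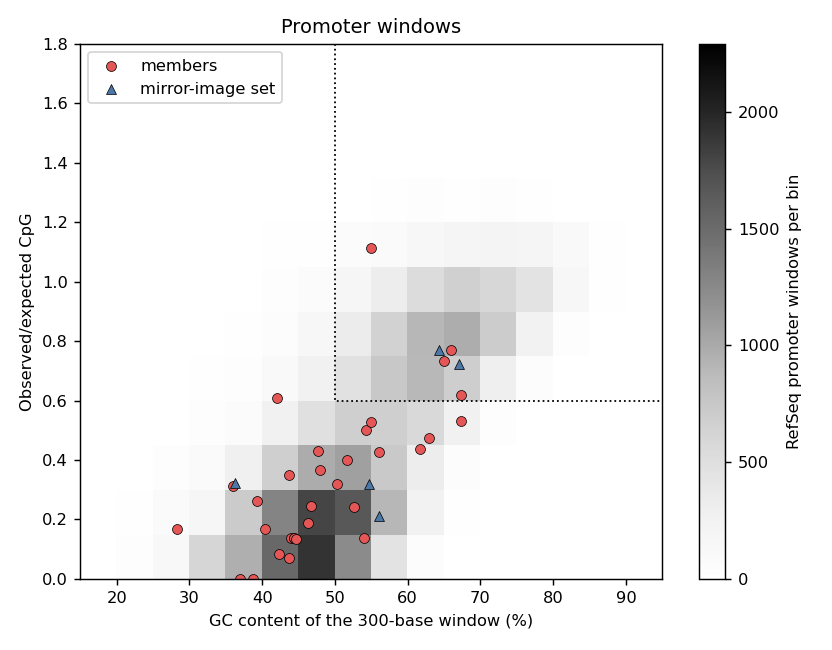
GC content (x, %) and observed/expected CpG ratio (y) of the 300-base promoter windows; red circles are the 32 windows of members, blue triangles the 5 of the mirror-image set, and grey shading the number of RefSeq windows in each bin. Dotted lines bound the CpG-rich corner, which holds 4 of the 32 member windows.

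Each window was searched on both strands for 10 motifs. The homeodomain core GGATTA was in 6 of 32 member windows (18.8%), against 7.06% of all 32851 windows. These were the windows of the 3 chromosome 4 copies, Gm4567, Gm839 and A230072E10Rik. The promoter core motif TATAAA was in 7 of 32 (21.9%), against 13.6% of all windows, and 3 of the 7 were the chromosome 4 copies. The nuclear receptor motif TCAAGGTCA was in 2 (6.25%), against 0.423%, namely Gm4567 and Fam90a1a. The NF-Y motif CCAAT was in 37.5% of member windows and 37.4% of all windows. The Sp1 motif GGGCGG was in 25% of member windows and 35.7% of all windows. The motif GGAATG, read by TEAD factors, was in 3 member windows (9.38%), against 14.7%. The other 4 motifs were each in 1 member window (3.12%): the cAMP response element TGACGTCA, with 1.79% of all windows, the bHLH motif CACGTG, with 7.15%, the double homeobox motif TGATTNAAT, with 0.718%, and the octamer ATGCAAAT, with 1.74%. Among windows of genes silent in both siControl libraries, the shares were 7.12% for GGATTA, 16% for TATAAA and 0.455% for TCAAGGTCA. They were 37.2% for CCAAT, 29.9% for GGGCGG and 15.8% for GGAATG. For TGACGTCA, CACGTG, TGATTNAAT and ATGCAAAT they were 1.26%, 5.71%, 0.612% and 1.68%. A match says only that these letters are in the window.

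Lists of genes by role held members about as often as all genes did. Over 16 lists with 769 listed genes, 1 gene (0.13%) was a member, H2-Q9 in the list of interferon, MHC and innate immunity genes, against 0.152% of all genes listed. The other 15 lists held 0 members. The list of neurotransmitter receptors, channels and synapse genes had 71 of 97 genes silent in both siControl libraries, and that of developmental transcription factors 68 of 106, and 0 of these were members, where the share over all genes silent in both siControl libraries was 0.36%. Chrnb4, Lef1 and Hoxc13 are not in those lists. The list of 2-cell stage genes outside the families left out had 5 of 24 genes silent in both siControl libraries and 0 members, while its median log2 difference of siPwp1 minus siControl was 1.57, against 0 over all genes listed.

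The families left out by the definition held 6 more genes that met both limits, and 0 that met the reverse. Olfr995, an olfactory receptor gene, stood at 0.345 and 0.2445 CPM with control siRNA, and 10.2 and 7.67 CPM in siPwp1. Usp17lc, a deubiquitinase gene of the 2-cell stage, stood at 0.380 and 0.4935 CPM and then 7.27 and 6.07 CPM. Vmn2r94, a vomeronasal receptor gene, stood at 0.207 and 0.0889 CPM and then 3.34 and 5.86 CPM. Pramef6, Olfr815 and Obox7 had siPwp1 means of 1.75, 1.498 and 1.27 CPM. With these the count would be 43.

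The mirror-image set was made of Gstm3, Plxnd1, Wdr72, Oacyl, Acss1, Tkfc, Cntf and Hmga2-ps1. Gstm3, a glutathione S-transferase gene, stood at 2.795 and 1.42 CPM in siControl, against 0.328 and 0.494 CPM in siPwp1. Plxnd1, a semaphorin receptor gene, stood at 1.69 and 2.245 CPM and then 0.123 and 0.0329 CPM. Wdr72 stood at 2.31 and 1.60 CPM and then 0.492 and 0.0659 CPM. Oacyl stood at 1.45 and 1.96 CPM and then 0.431 and 0.297 CPM, and Acss1, a mitochondrial acetyl-CoA synthetase gene, at 1.415 and 1.53 CPM and then 0.431 and 0 CPM. Their siControl means ran from 1.15 to 2.11 CPM, with none at the levels of the top 3 members, and 0 of the 8 had 0 counts in both siPwp1 libraries.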

How the data were processed

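Each of the 4 deposited files lists expected counts, which RSEM estimates per gene, with TPM and FPKM made by the authors beside them, per the file headers. The submitters' processing notes name STAR 2.7.10 with RSEM 1.3.3, and mm10 as build. For trimming, strand setting and annotation release, the entry is: not given in the sources used here. CPM was computed from the deposited expected counts as the count over the column sum, and TPM was used to compare levels between genes. FPKM served as an alternative unit. RSEM splits reads among near-identical copies, and genes that overlap on opposite strands cannot be told apart where strand is not kept.

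Over all genes, rounded expected counts were tested with edgeR 4.0.16 (quasi-likelihood, TMM, filterByExpr with a minimum count of 10) and with DESeq2 1.42.0 in R 4.3.3, with two-sided p-values adjusted by the Benjamini-Hochberg method at 0.05. The edgeR script was tested on simulated data. Near-identical copies were found with BLAST 2.17.0 among GENCODE M21 transcripts (95% identity over 50% of the transcript). Gene models and promoter windows came from RefSeq GRCm38.p6, and exon overlaps from GENCODE M21. Listed genes that matched the same GENCODE gene were also counted as overlapping.

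Groups came from the sample titles. The members, the lists and the tests were chosen with earlier results of these data known. Genes named with values were the 20 members of highest siPwp1 mean, those with 0 counts in both siControl libraries, list members, the genes nearest each limit, the 5 highest genes of the mirror-image set, members within 1 Mb of each other and the 3 shortest and 3 longest. Genes added after their values were seen are marked as such. The values of 1 member are not reported here. The alternatives were other scalings, units and limits, families kept, overlapping genes left out, each library left out, other filters, the replicate number as a block and, added after seeing the data, copies summed. Floors of 3 counts cover counting error only.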

Additional observations from a re-analysis of the deposited data

How the results depend on the processing

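With TMM or DESeq2 scaling the set kept its 37 genes, and the mirror-image set held 10, including the same 8. TPM gave 31 genes (8 shared) and 10 mirror genes (1 shared), and FPKM 33 (9 shared) and 6 (1 shared). With TPM the share overlapping another gene was 13.33% in the set, and the median span of the mirror genes was 8057 bases. A silent limit of 0.25 CPM gave 16 genes with a median span of 7246 bases and 2 mirror genes, and a silent limit of 1 CPM 145 and 58. An expressed limit of 2 CPM gave 9 genes with a median span of 5590 bases and 0% overlapping, and 0 mirror genes; a limit of 5 CPM gave 2 and 0. Without overlapping genes there were 27 genes and 5 mirror genes, and with copies summed, an alternative chosen after seeing the data, 33 and 7. Only the 9 members with a near-identical copy could change in that sum.

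Leaving out 1 library, which loosens the definition by construction, gave 121 genes (without siControl replicate 1) to 227 (without siPwp1 replicate 1), with median spans of 18480 to 26330 bases and 16.56% to 26.45% overlapping. The mirror image gave 29 to 86 genes, with 17010 to 28570 bases and 15.79% to 29.31%. In edgeR over all genes, 36 to 156 were called higher and 2 to 22 lower without 1 library, 99 and 7 without the filter, and 42 and 2 by DESeq2. The stricter filter, DESeq2 size factors and a threshold of 0.1 left both at 0. The share of CpG-rich windows in the set was 33.33% with TPM, 0% at an expressed limit of 2 CPM and 28.32% to 39.77% without 1 library. The causes were not tested.

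With the replicate number as a block edgeR called 71 higher and 9 lower. The labels give only a shared number: over 11197 genes, which are not independent replicates, the differences of replicate 2 minus 1 correlated at 0.489 between the groups. A count of 3 equals 0.0615 to 0.1035 CPM, depending on the library, and lower levels were not detectable at this depth.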
